A study of Homo sapiens with 10 samples.

Results

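The response of 10 metabolic genes that are known as direct p53 targets was followed through 19 h of nutlin-3a in BJ cells. The genes were C12orf5 (now named TIGAR), TP53I3, FDXR, GLS2, SCO2, ALDH4A1, LPIN1, CPT1C, PANK1 and FUCA1, taken by symbol from 2 tables of levels, one for RNA-Seq and one for Ribo-Seq. All 10 were among the 13279 transcripts of the RNA-Seq table and 9 were among the 11337 of the Ribo-Seq table, where GLS2 had no row. Levels are in FPKM, the sequenced fragments of a gene after division by its length and by the depth of the library, and the Ribo-Seq level is called ribosome density.

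BJ cells are human fibroblasts, here a line immortalised with telomerase (hTERT). The groups were an untreated control (0 h) and cells exposed to nutlin-3a over 2, 4, 6 or 19 h, each profiled by RNA-Seq on poly(A) RNA and by Ribo-Seq, which sequences the pieces of mRNA that ribosomes protect. Every group was 1 library of 1 cell line, 10 libraries in all, so no comparison has a replicate check and no p-value was computed. The intervals given are 95% counting intervals from the reads behind each value, and they leave out the spread between cultures and PCR copies.

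In unstressed cells p53 is bound by MDM2, which blocks it and sends it to the proteasome, and nutlin-3a occupies the p53 pocket of MDM2 so that p53 accumulates without DNA damage. Besides the genes of arrest and apoptosis, p53 activates enzymes of intermediary metabolism. These act at separate points: the branch between glycolysis and the pentose phosphate pathway, mitochondrial electron transfer, amino acid breakdown, lipid and cofactor synthesis, and the lysosome.

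RNA-Seq libraries held 23845493 to 27554239 reads and Ribo-Seq libraries 7744912 (19 h) to 14460708 (4 h) (totals read back from the FPKM values). All 12 fibroblast marker genes were in the RNA-Seq table, none below 13.8 FPKM in any library. Of 10 markers of other cell types 4 had a row, and none of these reached 1 FPKM. The best known p53 targets were higher in every treated RNA-Seq library. CDKN1A, the cell-cycle inhibitor p21, had RNA levels of 68.6, 212.3, 915, 1204 and 1316 FPKM at 0, 2, 4, 6 and 19 h. MDM2 itself went through 14.9, 36.3, 203, 254 and 259 FPKM. Both were already higher at 2 h, a time at which none of the 10 genes followed here had reached a 2-fold difference. Among the 7015 genes tested below, 0.927% were at least 2-fold higher in RNA at 2 h. Finding none among so few genes is near that background.

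Promoter sequences are shown for the 3 members with the highest levels at 19 h and for PANK1, where a p53 half-site was found, so that the letters near the starts of these genes can be read beside their response. They are RefSeq windows of build GRCh38.p14, 250 bases before to 50 after an annotated start, printed 5′ to 3′ on the gene's strand, and capitals mark a match to the p53 half-site consensus, the decamer that p53 binds in pairs. The FDXR window is chr17:74872945-74873244 (minus strand) and the PANK1 window chr10:89645193-89645492 (minus strand). Those of TP53I3 and C12orf5 are chr2:24084785-24085084 (minus strand) and chr12:4320963-4321262 (plus strand).
FDXR: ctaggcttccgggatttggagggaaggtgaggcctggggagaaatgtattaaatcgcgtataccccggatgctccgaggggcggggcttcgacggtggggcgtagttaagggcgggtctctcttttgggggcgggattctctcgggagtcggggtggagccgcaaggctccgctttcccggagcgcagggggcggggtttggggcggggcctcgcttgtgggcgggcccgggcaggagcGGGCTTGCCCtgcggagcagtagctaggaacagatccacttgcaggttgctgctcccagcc
PANK1: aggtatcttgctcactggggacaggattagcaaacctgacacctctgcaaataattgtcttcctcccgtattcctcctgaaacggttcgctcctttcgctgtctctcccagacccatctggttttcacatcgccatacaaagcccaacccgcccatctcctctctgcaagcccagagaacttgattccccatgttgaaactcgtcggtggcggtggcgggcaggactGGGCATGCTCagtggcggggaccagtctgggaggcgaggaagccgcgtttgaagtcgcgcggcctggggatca
TP53I3: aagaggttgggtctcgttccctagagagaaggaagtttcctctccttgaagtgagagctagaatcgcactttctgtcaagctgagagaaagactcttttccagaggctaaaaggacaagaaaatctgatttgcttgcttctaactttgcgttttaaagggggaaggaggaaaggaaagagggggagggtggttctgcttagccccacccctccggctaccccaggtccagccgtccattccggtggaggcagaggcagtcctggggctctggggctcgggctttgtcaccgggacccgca
C12orf5: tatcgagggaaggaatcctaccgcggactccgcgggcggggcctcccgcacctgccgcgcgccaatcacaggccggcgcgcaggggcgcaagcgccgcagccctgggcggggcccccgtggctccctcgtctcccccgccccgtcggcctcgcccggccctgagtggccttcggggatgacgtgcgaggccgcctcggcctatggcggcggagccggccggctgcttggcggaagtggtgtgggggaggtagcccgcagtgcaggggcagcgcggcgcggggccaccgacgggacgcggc

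The FDXR match begins 11 bases before the start and the PANK1 match 23 bases before it. Each of these genes had a further window without a match, not printed here. Together, 9 of the 10 members had 16 windows, and 2 of the 16 held a match, against 2329 of 35116 windows of that length over all genes (6.63%). The decamer is its own reverse complement, so both strands were read at once. A match is a string of letters, not a site shown to be bound, and its absence from a window says nothing of the rest of the gene.

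Of the 10 genes, 8 reached 5 FPKM somewhere in RNA-Seq and somewhere in Ribo-Seq and were tested, together with 7015 genes in all. CPT1C and FUCA1 were below 5 FPKM in the Ribo-Seq control and passed through treated libraries, and PANK1 and GLS2 did not pass. A difference was called when a level, floored at 1 FPKM, was at least 2-fold from the control library of the same assay. In RNA, 0 of the 8 were called higher at 2 h, beside 0.927% of all tested genes, so that count is near the background. At 4 h 3 of 8 were called higher (C12orf5, TP53I3 and FDXR; 1.41% of all tested genes). FUCA1 joined them at 6 h, giving 4 of 8 at 6 h (1.753% of all) and the same 4 at 19 h (2.49%). No tested member was called lower in RNA at any time. The share of all tested genes called lower was 0.0143%, 0.684%, 5.39% and 7.1% in time order. With 8 genes, a count of 0 lower is near that background. The median log2 RNA change of the 8 was 0.02, -0.07, 0.56 and 1.055 at 2, 4, 6 and 19 h, against -0.045, -0.074, -0.0024 and -0.067 over all tested genes. These genes are known as p53 targets in part from cells treated like these, so a higher level here is not independent evidence that p53 acts on them.

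Ribosome density gave nearly the same calls. It was at least 2-fold higher for 0 of 8 at 2 h (2.12% of all tested genes), for C12orf5 and FDXR at 4 h (2.58% of all), and for C12orf5, TP53I3, FDXR and FUCA1 at 6 h (5.26%) and at 19 h (6.22%). The count of 0 at 2 h is near its background. TP53I3, called in RNA at 4 h, was below 2-fold in density at that time.

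**Figure D1:**
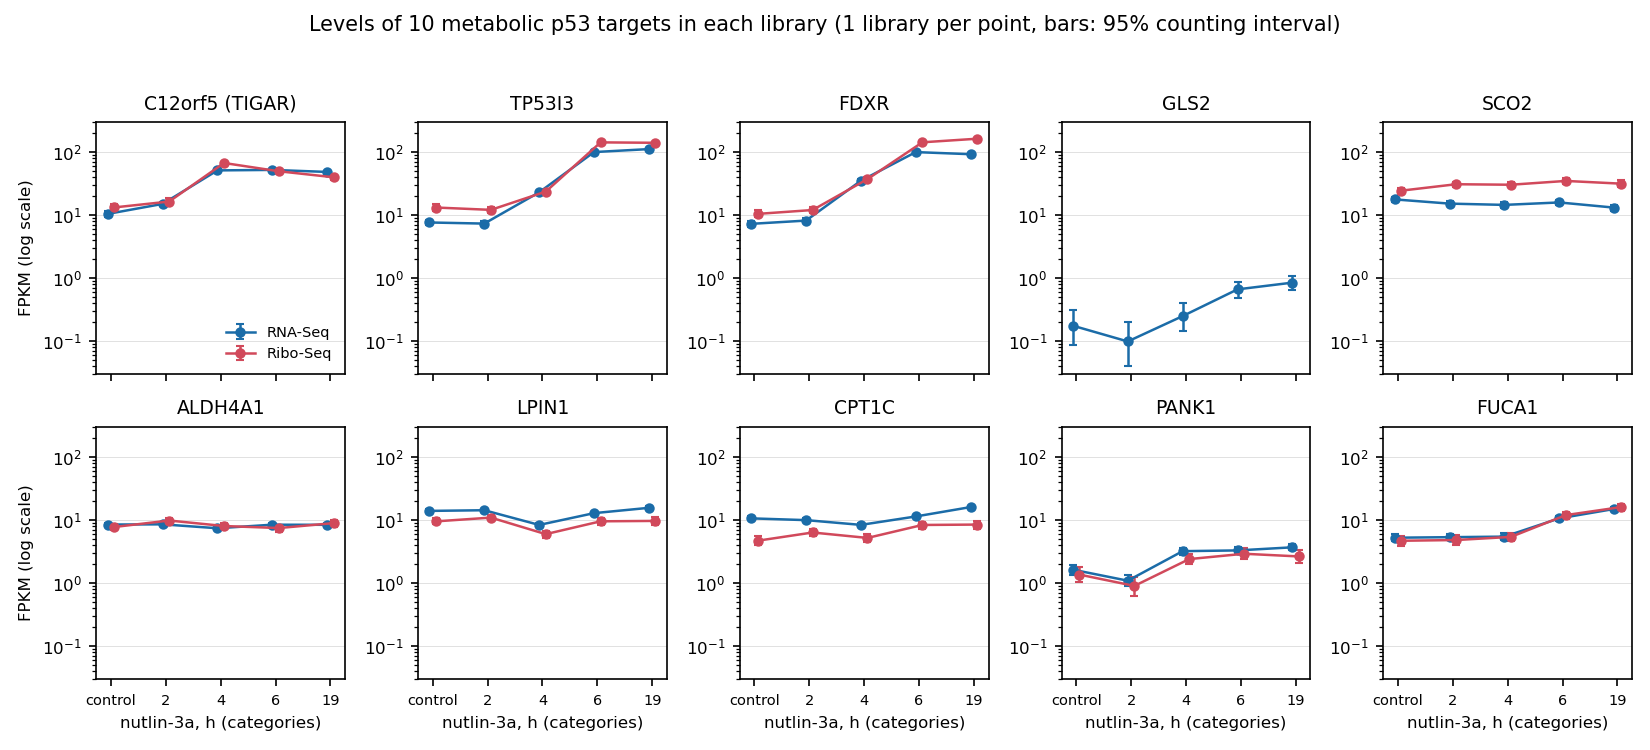
Level of each gene in every library, in FPKM on a log scale, against time on nutlin-3a (categories, not to scale); blue is RNA-Seq, red is Ribo-Seq, each point is 1 library and bars are 95% counting intervals. C12orf5 was near its highest level at 4 h, TP53I3 and FDXR reached theirs at 6 to 19 h, FUCA1 stayed near its control level until 4 h, and ALDH4A1 stayed between 7.41 and 9.83 FPKM in all 10 libraries.

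C12orf5 encodes a phosphatase of sugar phosphates that slows glycolysis and favours the pentose phosphate pathway, a source of NADPH. Its RNA level was 10.4 FPKM in the control and 15.1, 51.2, 52.1 and 48.4 FPKM at 2, 4, 6 and 19 h. In RNA it was the earliest of the tested members: at 2 h it was 1.44-fold the control (1.26 to 1.65), and 165 tested genes had a larger change. In density at 2 h it was 1.24-fold (1.03 to 1.49), below CPT1C, ALDH4A1 and SCO2. The difference reached 4.90-fold at 4 h (4.36 to 5.53) and was 4.63-fold at 19 h (4.12 to 5.22). From 4 to 6 h its RNA stayed level, with a ratio of 1.02 (0.953 to 1.09). Density was 13.2, 16.4, 67.1, 49.6 and 39.8 FPKM in the same order. Density thus peaked at 4 h and was lower at each later time, 0.739-fold at 6 h relative to 4 h (0.673 to 0.811) and 0.803-fold at 19 h relative to 6 h (0.710 to 0.909). The median log2 density change over all tested genes also went down, from 0.10 at 4 h to -0.02 at 6 h and -0.19 at 19 h. These ratios of C12orf5 are not corrected for it. Its transcript spans 1361 nt in these tables, and the values rest on 339 to 1955 RNA-Seq reads and 212 to 1321 Ribo-Seq reads.

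TP53I3, also known as PIG3, encodes a quinone oxidoreductase that uses NADPH. Its RNA levels were 7.64 FPKM in the control and 7.34, 23.004, 100.05 and 111.5 FPKM at 2, 4, 6 and 19 h. At 2 h no difference from the control was detectable (0.960-fold, 0.831 to 1.11). The fold was 3.01 (2.67 to 3.398) at 4 h, then 13.1 (11.8 to 14.6) at 6 h and 14.6 (13.1 to 16.3) by 19 h, and 5 tested genes had a larger change at 19 h. Density was 13.2 FPKM in the control and 12.1, 23.6, 142.6 and 140.4 FPKM later. It was 1.79-fold the control at 4 h (1.56 to 2.05) and 10.8-fold at 6 h (9.61 to 12.2). The largest part of the difference therefore arose between 4 and 6 h, where RNA was 4.35-fold higher (4.08 to 4.64) and density 6.04-fold higher (5.55 to 6.57). On the reference, TP53I3 overlaps FAM228B, which had no row in these tables.

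FDXR, ferredoxin reductase, passes electrons from NADPH to the ferredoxins of mitochondria, which serve steroid synthesis and the making of iron-sulphur clusters. Its RNA was at 7.27 FPKM in the control and at 8.19, 35.1, 99.9 and 92.5 FPKM at 2, 4, 6 and 19 h. Its density was 10.5, 12.05, 37.3, 142.9 and 162.9 FPKM. FDXR followed TP53I3 closely, with a larger difference at 4 h. RNA was 4.83-fold the control at 4 h (4.30 to 5.44), 13.7-fold at 6 h (12.3 to 15.4) and 12.7-fold at 19 h (11.4 to 14.2). Density was 15.6-fold at 19 h (13.6 to 17.8), the largest density difference among the members, and 5 tested genes exceeded it. Of the 2 printed windows with a half-site match, that of FDXR has it nearer to the start. A link between match and response was not tested.

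The late step of TP53I3 and FDXR was set beside other genes. Of the 4 members at least 2-fold higher in RNA at 19 h, 3 were so at 4 h, and TP53I3 and FDXR were at least 2-fold higher at 6 h than at 4 h. Among 41 tested p53 targets outside metabolism, 30 were 2-fold higher at 19 h, 24 of the 30 were so at 4 h, and 2 of the 30 (SPATA18 and TRIM22) made such a step from 4 to 6 h. Of the 175 genes called higher at 19 h among all tested, 61 were so at 4 h and 38 made the step. The study describes effects of the sequencing run, and the labels name no run. The study's methods and sample list give nutlin-3a at 6 and 19 h, without 2 and 4 h libraries. Whether the 2 and 4 h libraries shared a run with the others is therefore not given. The part of a run in differences between time points, the step from 4 to 6 h included, was not tested.

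FUCA1, the lysosomal enzyme that removes fucose from glycoproteins, was the last of the called members. Its RNA was 5.25 FPKM in the control and 5.35, 5.46, 10.6 and 15.0 FPKM later, and its density was 4.69, 4.82, 5.41, 11.98 and 16.0 FPKM. At 4 h no difference from the control was detectable in RNA (1.04-fold, 0.874 to 1.24) or in density (1.15-fold, 0.900 to 1.48). RNA was 2.03-fold the control at 6 h (1.749 to 2.36) and 2.86-fold at 19 h (2.48 to 3.30), and density was 2.55-fold (2.04 to 3.22) and 3.41-fold (2.72 to 4.30). It was still increasing between 6 and 19 h, by 1.41-fold in RNA (1.27 to 1.57). The RNA call at 6 h lies at the threshold: the log2 change was 0.90 with a pseudocount of 1 FPKM and 0.99 against the 2 h library, both under 2-fold. A 3-fold rule or a threshold in local SDs ended the RNA call at 6 and at 19 h.

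PANK1, a pantothenate kinase that starts coenzyme A synthesis, was too low to be tested but had the same direction in both assays. Its RNA was 1.63, 1.09, 3.21, 3.30 and 3.69 FPKM from 0 to 19 h, on 99 to 324 reads, and its density 1.36, 0.902, 2.40, 2.92 and 2.65 FPKM, on 36 to 117 reads. At 2 h RNA was below the control, at 0.669-fold (0.510 to 0.875). At 4 h it was above it, at 1.97-fold (1.59 to 2.44), and it was 2.26-fold at 19 h (1.84 to 2.80). Density was 1.76-fold at 4 h (1.27 to 2.48) and 1.94-fold at 19 h (1.34 to 2.82). The PANK1 difference was thus in place at 4 h, as for C12orf5, and the ratio of 6 to 4 h in RNA was 1.03 (0.869 to 1.22).

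GLS2, the p53-responsive glutaminase that turns glutamine into glutamate in mitochondria, was below 1 FPKM in all 5 RNA-Seq libraries. Its levels were 0.176, 0.099, 0.250, 0.664 and 0.849 FPKM at 0, 2, 4, 6 and 19 h, on 11, 7, 16, 48 and 58 reads. The ratio to the control was 3.78 at 6 h (1.93 to 8.06) and 4.83 at 19 h (2.51 to 10.2), and the intervals at 2 and 4 h include 1. These ratios concern a transcript near the limit of detection, and on the 1 FPKM floor they count as no difference. GLS2 overlaps SPRYD4 on the reference, and SPRYD4 was at 6.49 FPKM in the control and 7.09 FPKM at 19 h.

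CPT1C, the carnitine palmitoyltransferase relative that is best known from neurons, differed by less than 2-fold from the control at each time. Its RNA was 10.6, 9.97, 8.38, 11.4 and 16.1 FPKM and its density 4.70, 6.35, 5.20, 8.36 and 8.48 FPKM from 0 to 19 h. RNA was 0.788-fold the control at 4 h (0.706 to 0.879) and 1.51-fold at 19 h (1.38 to 1.66). Density was already 1.35-fold at 2 h (1.10 to 1.66), the highest density change of a tested member at that time. It was 1.11-fold at 4 h (0.899 to 1.36), 1.78-fold at 6 h (1.45 to 2.18) and 1.80-fold at 19 h (1.45 to 2.24). After centring on the median of all tested genes the density change at 19 h was 1.04 on the log2 scale and passed the 2-fold rule, and against the 2 h library it was 0.42.

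LPIN1, lipin 1, is a phosphatidate phosphatase of glycerolipid synthesis that also acts on transcription of genes of fatty acid oxidation. It dipped at 4 h and was back at 6 h. RNA was 13.97, 14.3, 8.37, 12.9 and 15.6 FPKM and density 9.53, 10.9, 5.98, 9.55 and 9.69 FPKM. At 4 h RNA was 0.599-fold (0.541 to 0.662) and density 0.627-fold (0.532 to 0.738) the control, and 6891 of the 7015 tested genes had a higher RNA change at that time. At 19 h RNA was 1.12-fold (1.03 to 1.22) and density 1.02-fold (0.857 to 1.205). LPIN1 was the member with the lowest change at 4 h in both assays, and neither difference reached 2-fold.

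SCO2, a copper chaperone needed to assemble cytochrome c oxidase, went in different directions in the assays. Its RNA was 17.8 FPKM in the control and 15.2, 14.5, 15.9 and 13.2 FPKM later, lower in all 4 treated libraries. Its density was 24.4 FPKM in the control and 30.9, 30.3, 34.9 and 31.6 FPKM later, higher in all 4. RNA was 0.741-fold at 19 h (0.643 to 0.853), and density was between 1.24-fold (4 h, 1.07 to 1.44) and 1.43-fold (6 h, 1.22 to 1.67). At 6 h the RNA difference was not beyond counting error (0.895-fold, 0.784 to 1.02). Against the 2 h library the density log2 changes of SCO2 at 4, 6 and 19 h were -0.03, 0.17 and 0.03, and those of its RNA -0.07, 0.06 and -0.21. SCO2 overlaps NCAPH2 and TYMP on the reference. NCAPH2, a condensin subunit, had an RNA log2 change of -1.96 and a density log2 change of -1.63 at 19 h, and TYMP stayed below 1 FPKM in RNA. Whether reads were counted by strand is not given in the sources used here, and the part of these neighbours in the SCO2 values was not tested.

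ALDH4A1, the mitochondrial enzyme that completes proline breakdown to glutamate, was within 1.5-fold of its control level in both assays at all 4 times. RNA levels were 8.48, 8.55, 7.41, 8.44 and 8.40 FPKM, and density was 7.76, 9.83, 8.04, 7.47 and 8.95 FPKM. At 2 h density was 1.27-fold (1.09 to 1.48), and at 4 h RNA was 0.874-fold (0.782 to 0.976). At 19 h the RNA ratio was 0.991 (0.891 to 1.10) and the density ratio 1.15 (0.968 to 1.37), so a 2-fold difference lies outside the counting intervals of both.

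**Figure D2:**
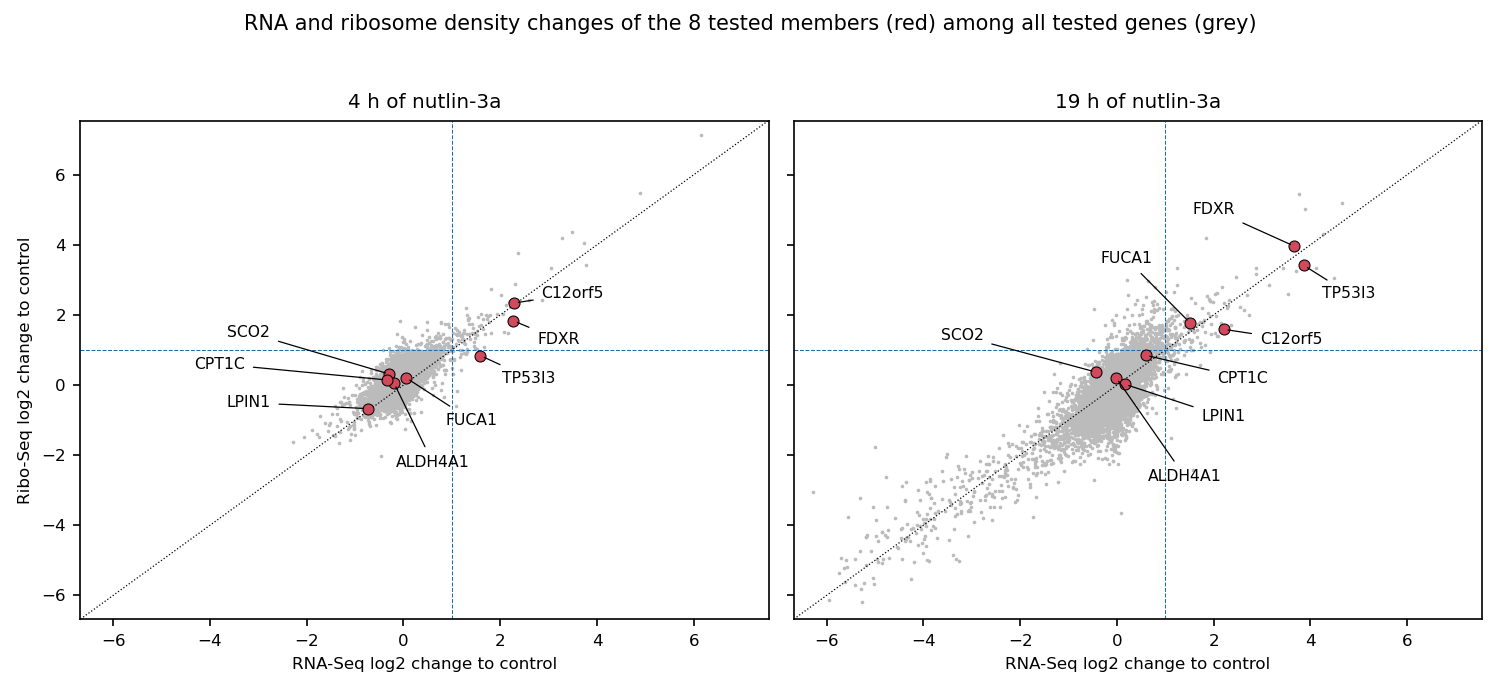
Log2 change of ribosome density (vertical axis) against log2 change of RNA (horizontal axis), both to the control library, at 4 h (left) and 19 h (right); grey points are all 7015 tested genes, red points the 8 tested members, dashed lines mark 2-fold and the dotted line equal change. TP53I3 lay below the dotted line at 4 h, with 1.59 in RNA and 0.84 in density, and at 19 h FDXR and TP53I3 were far from the bulk of the genes while ALDH4A1 and LPIN1 were inside it.

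Translational efficiency (TE), the log2 ratio of density to RNA, asks whether ribosomes followed the transcript. No member with values in both assays, the untested PANK1 included, differed by 2-fold in TE at any time. Of all tested genes 1.2%, 0.998%, 5.74% and 6.14% were called in either direction at 2, 4, 6 and 19 h. With 8 tested members, a count of 0 is near that background. Smaller differences went beyond counting error, the only error that the intervals cover. In the study's read statistics, the untreated control had a larger share of Ribo-Seq reads outside coding sequence than the 6 and 19 h libraries. The part of this in the TE differences was not tested. The TE change of TP53I3 was -0.75 at 4 h (-1.01 to -0.49), where 22 of the 7015 tested genes had a lower one. It was -0.46 at 19 h (-0.69 to -0.23), where 1549 tested genes had a lower TE change. That of FDXR was -0.44 at 4 h (-0.70 to -0.18) and 0.29 at 19 h (0.04 to 0.54).

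C12orf5 had the reverse order in time. Its TE change was 0.05 at 4 h (-0.22 to 0.32), -0.41 at 6 h (-0.69 to -0.14) and -0.62 at 19 h (-0.91 to -0.33). Many genes went lower in TE than C12orf5, 1444 of those tested at 6 h and 975 at 19 h. SCO2 had a higher TE at all 4 times, by 0.56, 0.60, 0.67 and 0.80 on the log2 scale, and at 19 h 279 tested genes had a larger change. With the 2 h libraries as baseline its TE changes at 4, 6 and 19 h were 0.04, 0.11 and 0.24, so most of each difference was already present between the control and 2 h. CPT1C was higher by 0.53, 0.49 and 0.73 at 2, 4 and 6 h, and by 0.25 at 19 h with an interval of -0.08 to 0.58; against 2 h its changes were -0.04, 0.20 and -0.27. ALDH4A1 was higher at 2 h, by 0.33 (0.07 to 0.59), and its interval included 0 at the later times. For LPIN1, PANK1 and FUCA1 the interval included 0 at all 4 times. The times share their control libraries, so a low or high control value would recur in every difference. The TE median over all tested genes was 0.18 at 4 h, and relative to it the 4 h changes were -0.93 for TP53I3, -0.62 for FDXR, 0.42 for SCO2 and 0.31 for CPT1C.

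**Figure D3:**
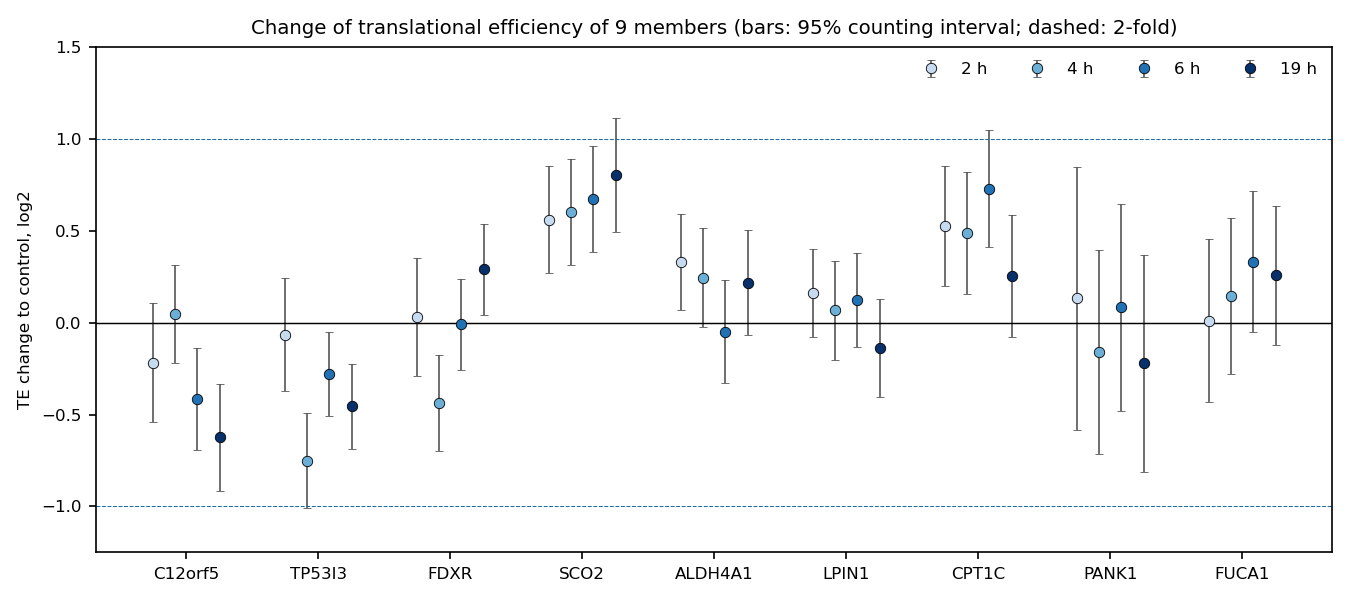
Log2 change of TE to the control (vertical axis) for the 9 genes in both tables, at 2, 4, 6 and 19 h (light to dark); points are single pairs of libraries, bars are 95% counting intervals and dashed lines mark 2-fold. SCO2 was above 0 at all 4 times, TP53I3 was lowest at 4 h with -0.75, and C12orf5 was lowest at 19 h with -0.62.

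The order of the members by level, which FPKM makes comparable by transcript length, was not the same in the control and at 19 h. In control RNA SCO2 was highest (17.8 FPKM), followed by LPIN1, CPT1C, C12orf5, ALDH4A1, TP53I3, FDXR, FUCA1, PANK1 and GLS2. The neighbours CPT1C and C12orf5, ALDH4A1 and TP53I3, and TP53I3 and FDXR did not differ beyond counting error. At 19 h TP53I3 (111.5 FPKM) and FDXR (92.5 FPKM) led, then came C12orf5, CPT1C, LPIN1, FUCA1, SCO2, ALDH4A1, PANK1 and GLS2. There CPT1C and LPIN1, and LPIN1 and FUCA1, did not differ beyond counting error. In density SCO2 led in the control as well (24.4 FPKM), and FDXR (162.9 FPKM) and TP53I3 (140.4 FPKM) led at 19 h. Neighbours in density that did not differ beyond counting error were C12orf5 and TP53I3, FDXR and LPIN1, and CPT1C and FUCA1 in the control, and LPIN1, ALDH4A1 and CPT1C at 19 h. As these are bulk libraries, more transcript per cell and more cells with the transcript cannot be told apart.

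Paralogs and pathway partners of the members were set beside them. Of 46 such genes 35 were tested, and none was 2-fold higher or lower in RNA at any time, beside 2.49% of all tested genes higher and 7.1% lower at 19 h, so the count of 0 higher is near that background. Their median log2 RNA change at 19 h was 0.05, against -0.07 over all tested genes. SCO1, the paralog of SCO2, was lower in RNA (0.723-fold, 0.658 to 0.795) and in density (0.703-fold, 0.601 to 0.820) at 19 h, while SCO2 density was higher. FUCA2 was at 0.909-fold in RNA (0.843 to 0.980), beside 2.86-fold for FUCA1.

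PANK2, PANK3 and PANK4 were at 1.11-fold, 0.891-fold and 0.848-fold of control RNA at 19 h, beside 2.26-fold for PANK1. CPT1A, the liver-type carnitine palmitoyltransferase, was at 0.807-fold (0.760 to 0.857) and CPT1B, which has a row in RNA alone, went from 3.05 to 3.81 FPKM. LPIN2 was at 0.873-fold and LPIN3 at 1.66-fold (1.51 to 1.82), and LPIN3 density was 1.79-fold on 134 and 158 reads. LPIN2 RNA was also lowest at 4 h, with a log2 change of -0.45 beside -0.74 for LPIN1.

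PFKFB4 was the one gene of this list with a 2-fold RNA difference at 19 h, and it was too low in density to be tested. It encodes an enzyme that makes and breaks down the sugar bisphosphate on which C12orf5 acts. Its RNA was 2.16, 2.61, 4.90, 5.82 and 6.78 FPKM from 0 to 19 h, 3.13-fold at 19 h (2.65 to 3.71). Its density was 1.04, 0.941, 1.00, 1.19 and 0.792 FPKM, 0.759-fold at 19 h (0.433 to 1.29) on 44 and 22 reads. The RNA of C12orf5 and of PFKFB4 was thus higher, with density higher for C12orf5 alone.

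**Figure D4:**
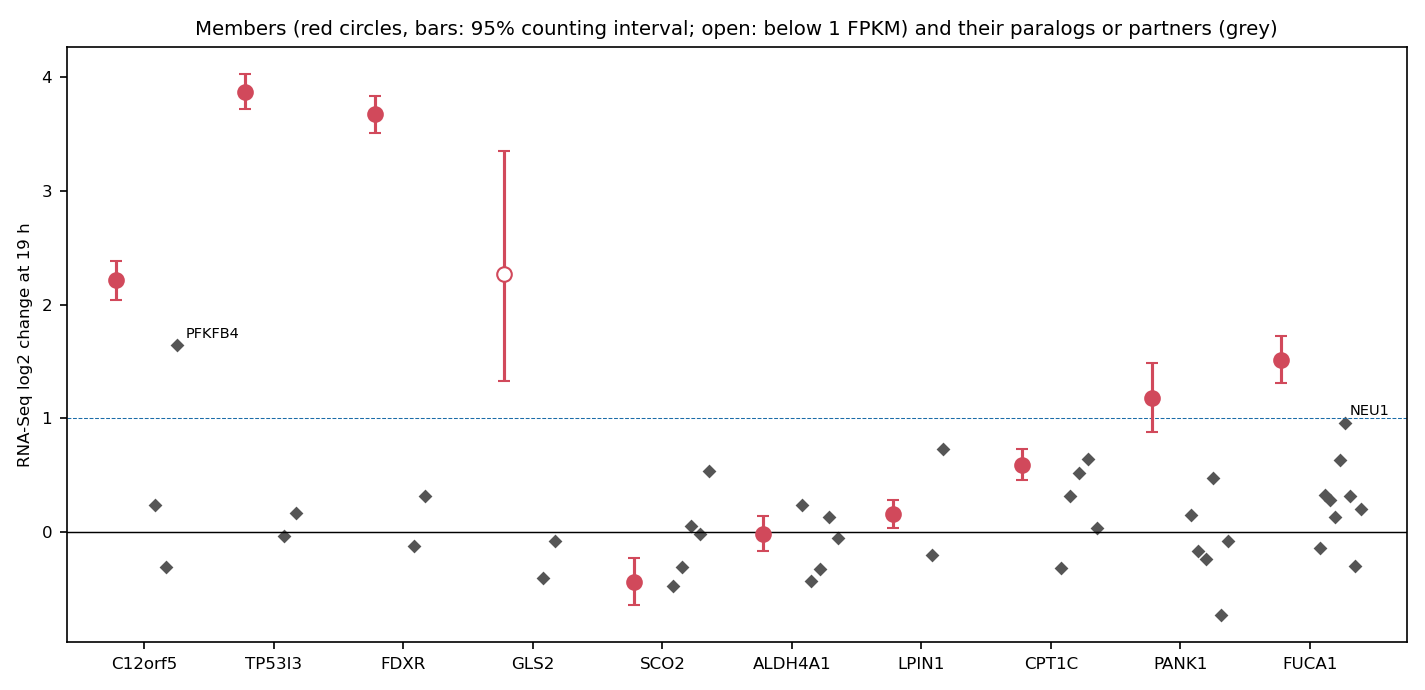
Log2 change of RNA at 19 h (vertical axis) for each member (red circle, bars are 95% counting intervals, open where all levels were below 1 FPKM) and its paralogs or pathway partners (grey diamonds, changes floored at 1 FPKM); PFKFB1, below 1 FPKM in all libraries, and a gene of the list that is not reported here are not drawn. PFKFB4 at 1.65 is the one grey point above the dashed 2-fold line, and NEU1 at 0.96 comes next.

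A second list held 38 other metabolic genes linked to p53, of which 21 were tested. At 19 h 5 of the 21 were 2-fold higher in RNA and 0 were lower, with a median log2 change of 0.05. Over all tested genes, 2.49% were higher and 7.1% lower at that time, so the count of 0 lower is near that background. Among the tested genes the 3 largest differences were those of RRM2B, ISCU and GAMT. ACER2, an alkaline ceramidase, and ABCA1, a cholesterol exporter, were too low in density to be tested and had larger RNA folds, 18.6 (12.1 to 30.0) and 6.94 (5.95 to 8.13), without the floor. RRM2B, the p53-inducible subunit of ribonucleotide reductase, went from 9.66 to 41.3 FPKM in RNA (4.27-fold, 4.01 to 4.56) and from 5.67 to 14.9 FPKM in density (2.63-fold, 2.29 to 3.02). ISCU, the scaffold on which iron-sulphur clusters are built and so a partner of FDXR in function, went from 43.7 to 131.4 FPKM in RNA (3.01-fold, 2.81 to 3.23) and was 3.22-fold in density. GAMT, the last enzyme of creatine synthesis, was 2.33-fold in RNA (2.05 to 2.66) and 2.79-fold in density (2.46 to 3.17).

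The lowest 3 of the tested genes were TFAM, SREBF1 and ME2. TFAM, the packaging protein of mitochondrial DNA, was at 0.548-fold in RNA (0.495 to 0.606) and 0.479-fold in density (0.390 to 0.585). ME2, the mitochondrial malic enzyme, was at 0.693-fold in RNA and 0.441-fold in density (0.358 to 0.540). SREBF1, a regulator of fatty acid synthesis, was at 0.675-fold in RNA (0.636 to 0.717) and, in the other direction, at 1.49-fold in density (1.36 to 1.64).

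The 50 p53 targets outside metabolism, of which 41 were tested, were set beside the members in the same libraries. This list was chosen with earlier results of these data known, so its counts are not an independent measure of a p53 response. In RNA 9, 27, 28 and 30 of the 41 were 2-fold higher at 2, 4, 6 and 19 h, with median log2 changes of 0.35, 1.36, 1.46 and 1.53. Of all tested genes 0.927%, 1.41%, 1.753% and 2.49% were 2-fold higher at these times. The corresponding counts of the 8 members were 0, 3, 4 and 4. With levels floored at 1 FPKM, the largest differences were those of BTG2, an antiproliferative factor, at 25.3-fold (21.4 to 30.2), CDKN1A at 19.2-fold (18.3 to 20.1) and MDM2 at 17.5-fold (16.8 to 18.2). GDF15, a secreted stress factor below the floor in the control, was 60.7-fold without the floor (29.2 to 152), on 7 and 464 reads. TP53I3 and FDXR, at 14.6-fold and 12.7-fold, came close to these. The lowest were BTG1 (0.875-fold), PERP (1.09-fold) and APAF1 (1.10-fold), within the range of SCO2, ALDH4A1 and LPIN1.

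Genes with a profile most like that of the members were looked for over 8 values, the 4 RNA and 4 density log2 changes, by Euclidean distance to the median profile of the 8 tested members. The nearest 5 among the tested genes outside the set were NEU1 (distance 0.35), MMP2 (0.35), POLD4 (0.37), CDC42EP5 (0.39) and TSPYL2 (0.41). NEU1, a lysosomal sialidase, went from 14.2 to 27.6 FPKM in RNA and from 17.0 to 35.6 FPKM in density at 19 h. NEU1 was on the list of partners, as an enzyme of the lysosome beside FUCA1. The median profile is not that of any one member: CPT1C (0.87) and FUCA1 (0.93) were nearest to it and FDXR was farthest (6.32). CPT1C and FUCA1 were the middle members in RNA at 6 and 19 h and set the median there. Their nearness is therefore partly built in, and both passed the filter through treated libraries.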

How the data were processed

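Levels were taken from 2 tables, one per assay, in FPKM. As the methods describe, reads were aligned by the authors (Bowtie) to protein-coding transcripts of Ensembl release 65, 1 isoform per gene, and kept reads with a unique hit; the submitters' processing notes name hg19. The deposited FPKM values have 3 decimals and no floor. The assay of each table came from its name: one is named for Ribo-Seq alone and the other for both assays, and the latter was read as RNA-Seq. The methods describe Ribo-Seq levels from coding sequence while the column names say total. The same length fitted the values of both assays for 11144 of 11258 transcripts. For these, Ribo-Seq levels were therefore divided by the length used for RNA-Seq. Whether Ribo-Seq reads outside coding sequence were counted could not be decided.

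FPKM is whole reads over transcript length and library total. Totals, lengths and reads were worked out from how the values are spaced, for 11144 of 11258 transcripts in both tables (99.0%), after a test on simulated data. The median tested gene had 1333 reads in the RNA-Seq control, 504 in the Ribo-Seq control and 290 in Ribo-Seq at 19 h. Reads gave the intervals: exact conditional binomial for a ratio of libraries, exact Poisson for a level, normal on the log2 scale for TE. They cover counting error only.

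Log2 changes were taken to the control of the same assay after a floor of 1 FPKM. Genes were tested when their highest level was 5 FPKM or more in both assays, and a call was a 2-fold difference. With 1 library per group no p-value was computed. Named were all members, direct paralogs and partners with a 2-fold RNA change at 19 h (a gene of this list is not reported here by name), the 3 highest and 3 lowest tested genes of the other lists, the 5 nearest profiles, and CDKN1A and MDM2. Genes outside this rule (NCAPH2, TYMP, SPRYD4, FAM228B, SPATA18, TRIM22, NEU1, GDF15, ACER2, ABCA1) were named after their values were seen. The members and lists were chosen with earlier results of these data known. Promoter windows came from RefSeq (GRCh38.p14), of which no SCO2 window was used here. Python 3.11.15, numpy 2.4.6, pandas 2.3.3 and scipy 1.17.1 were used. Alternatives were another floor, a pseudocount, other filters, the 2 h library as baseline, centring on the median, and other thresholds.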

Additional observations from a re-analysis of the deposited data

Results flagged for a closer look

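In RNA-Seq, 3 members lay on opposite sides of the control at different times, with both counting intervals excluding 1, and the difference between times was not tested against replicates. LPIN1 RNA was 0.599-fold the control at 4 h and 1.12-fold at 19 h. CPT1C RNA was 0.788-fold at 4 h and 1.51-fold at 19 h. PANK1 RNA was 0.669-fold at 2 h and 2.26-fold at 19 h. Each of these rests on 1 library per time and on the shared control library.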

How the results depend on the processing

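The numbers of members called, 12 results over 3 measures and 4 times, were recomputed under the alternatives, 105 values in all. In 99 of them the number stayed within 1.5 times the main count, and in 6 it moved, each time from a main count of 0. Such a count cannot fall, and the 3-fold threshold could only leave it at 0. Within the margin of 1.5 times single calls still changed. FUCA1 lost its RNA call at 6 h with the pseudocount and with the 2 h baseline, its RNA calls at 6 and 19 h with the 3-fold and the local SD thresholds, and its density call at 6 h with the 3-fold threshold, and it was not tested under the filter on a mean of 20 FPKM. CPT1C gained a density call at 19 h after centring, and PANK1, tested when no filter was set, was called in RNA at 6 and 19 h and in density at 6 h. With a level-dependent threshold set in local SDs, 1 member (C12orf5) was called higher in RNA at 2 h instead of 0, 1 (SCO2) was called in TE at 2 h and 2 (TP53I3 and SCO2) in TE at 4 h, where the 2-fold rule called none. With a 1.5-fold threshold TE calls were 2 at 4 h (TP53I3 and SCO2), 2 at 6 h (SCO2 and CPT1C) and 2 at 19 h (C12orf5 and SCO2). These thresholds also called 3.41% of all tested genes in RNA at 2 h, 7.46% and 13.1% in TE at 2 and 4 h, and 9.95%, 25.6% and 24.6% in TE at the 1.5-fold threshold. No called change of a member reversed under any setting. Of the log2 changes of single members, 55 of 409 moved by more than their 95% counting error (for GLS2, off the floor), 36 of these with the 2 h baseline, where 22 came closer to 0, 5 went farther and 9, all within 2-fold in the main values, took the other sign. Log2 changes of PANK1 became 0 with a floor of 5 FPKM, since all its levels are below that. No paired analysis was possible because each group holds 1 library. Depth limits GLS2 and PANK1 most.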
